A study of Mus musculus with 6 samples.

Results

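Zfp990, Znf41-ps, Zfp991, Zfp985 and Zfp979 are 5 zinc finger genes of a single cluster on mouse chromosome 4, out of 49548 genes counted. They were chosen by the difference of their counts between WT and CharmeKO cardiac fibroblasts (CFs), as neighbouring zinc finger genes that changed in mixed directions. Since the same 6 libraries served for this choice, their differences between the genotypes are given as a description, with no p-value, and the fit across all genes says nothing independent about them. The libraries hold poly(A)-selected mRNA of native CFs, with 3 WT and 3 CharmeKO samples. These cells were dissociated from hearts of C57BL/6J mice aged 5 weeks and depleted of hematopoietic cells. RNA of endothelial, mural and cardiomyocyte markers was also present, so levels are those of the preparation and not of fibroblasts alone. CharmeKO animals carry a polyadenylation signal inserted into the locus of Charme, a long noncoding RNA, and WT animals carry no such insertion. The sex and litter of the animals are not given in the labels, and the labels also list a growth medium for these cells. Nothing in the labels ties a sample to a single animal, so the spread below is that between samples.

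The cluster encodes Krüppel-associated box (KRAB) zinc finger proteins, a family that expanded by repeated duplication and lies in tandem arrays. A C2H2 finger is a short loop held by a zinc ion, and amino acids at set positions of its helix touch DNA bases, so that a row of fingers reads a DNA sequence. The KRAB domain recruits the corepressor TRIM28, which brings in the histone methyltransferase SETDB1, and many of these proteins silence transposable elements. Zfp979 is also known as Ssm1b, a strain-specific modifier of transgene methylation. Znf41-ps is annotated as an unprocessed pseudogene and is not expected to give a protein.

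The coding sequences of the 4 coding members held 13 (Zfp990), 11 (Zfp991), 10 (Zfp985) and 3 (Zfp979) C2H2 fingers, in proteins of 605, 573, 519 and 407 residues. Fingers were counted as matches to a fixed spacing of the 2 cysteines and 2 histidines. Fingers that depart from this spacing are not counted, and the first finger is the first match. The first finger of each is printed below, 63 bases read from the GENCODE transcripts (release M21, GRCm38), because it shows how the members share a scaffold and differ in the codons that set DNA contacts. Capitals mark the codons of helix positions -1, 2, 3 and 6.
Zfp990: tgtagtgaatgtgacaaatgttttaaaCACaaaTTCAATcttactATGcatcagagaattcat
Zfp991: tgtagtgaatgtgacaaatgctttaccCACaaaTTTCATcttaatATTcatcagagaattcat
Zfp985: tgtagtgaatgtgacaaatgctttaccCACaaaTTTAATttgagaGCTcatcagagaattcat
Zfp979: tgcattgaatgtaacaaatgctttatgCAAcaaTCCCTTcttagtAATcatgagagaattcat
Over the 12 bases in capitals Zfp991 differed from Zfp990 at 3 and from Zfp985 at 3, and over the 51 other bases at 4 and 4. Zfp979 stood farther from Zfp990, Zfp991 and Zfp985, with 6, 5 and 7 differences in capitals and 9, 8 and 10 outside them.

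Total counts were 9595701 to 42101393 in WT, with the shallowest and the deepest library both in this group, and 23550718 to 31048606 in CharmeKO. Levels are given in CPM, the count relative to a library total scaled with TMM factors. Where a gene had 0 counts, its true level may be as high as 3 counts, or 0.0705 to 0.323 CPM depending on the library, a limit for counting error only. Charme, the targeted gene, had 26, 15 and 4 counts in WT and 7, 0 and 0 in CharmeKO. CharmeKO replicate 1, which holds all of the Charme counts of its group, also held both Xist (473 CPM) and a low level of the Y-linked Ddx3y (2.06 CPM), where WT replicate 1 and CharmeKO replicate 2 had Xist alone and the remaining libraries mainly Ddx3y.

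The members fell into a set that was higher in CharmeKO (Zfp990, Zfp985, Zfp979) and a set that was lower (Znf41-ps, Zfp991). In each of the 5, the 3 CharmeKO libraries lay apart from the 3 WT libraries, as they did in 18.2% of all 15789 genes tested (9.57% above and 8.59% below). At an adjusted p under 0.05 in edgeR's quasi-likelihood test, 0.83% of all genes were called (0.418% higher and 0.412% lower), and the members were among them by their choice. All 5 had at least 10 counts in at least 2 libraries, the minimum for testing, but Zfp990 passed through CharmeKO libraries alone and Znf41-ps through WT libraries alone. Zfp991, with 14, 2 and 3 counts in CharmeKO, would not have passed in that group alone. Without CharmeKO replicate 1, the library with both Xist and Ddx3y, the log2 fold changes were 8.07 for Zfp990, 3.08 for Zfp985, 1.92 for Zfp979, -4.55 for Znf41-ps and -4.66 for Zfp991. In such bulk samples fewer cells of a type and less RNA per cell cannot be told apart.

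**Figure D1:**
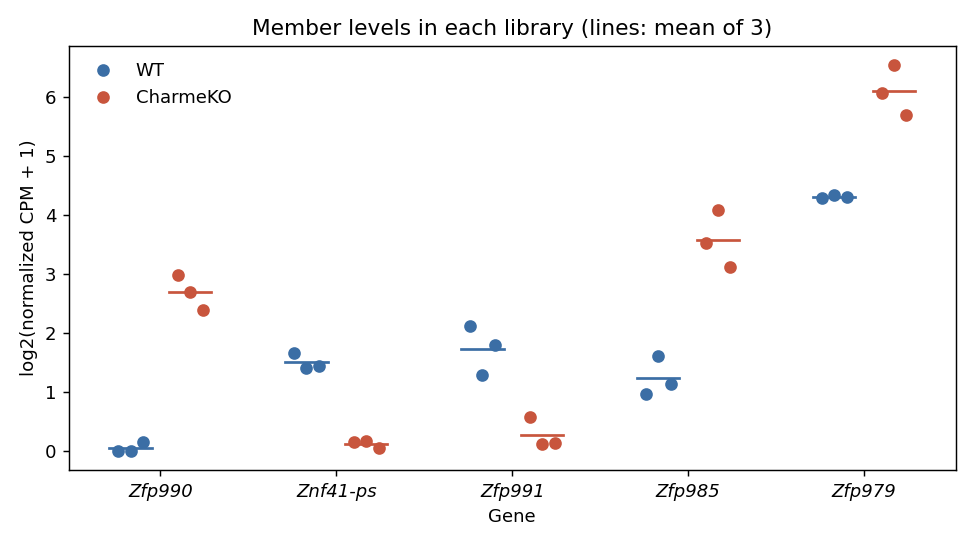
Level of each member in each library, as log2(CPM + 1) on the y axis, with 3 points for WT (blue) and 3 for CharmeKO (red) and a line at their mean. The points of the genotypes do not overlap for any member, and the WT points of Zfp979 lie closest together.

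Zfp990, which has the most fingers of the 4 coding members, was close to silent in WT, where it had 0, 0 and 1 counts. In CharmeKO it had 197, 134 and 129 counts, or 6.88, 5.48 and 4.24 CPM. The mean was 0.0359 ± 0.0621 CPM in WT and 5.54 ± 1.32 CPM in CharmeKO (SD, n = 3 each). Every CharmeKO library was thus above every WT library, and the WT values were under the level that a count of 0 allows. The summed counts, 1 in WT and 460 in CharmeKO, gave a ratio of 430 with a 95% exact interval of 76.9 to 17039 for counting error. The fitted log2 fold change was 8.27 (SE 0.71), which depends on the prior count that the fit adds to such low values, and it was 10.40 without WT replicate 3, the library with the single count.

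Zfp985, a gene of 10 fingers, was low but present in WT, with 40, 54 and 11 counts (0.940, 2.05 and 1.18 CPM). It had 301, 391 and 233 counts (10.5, 16.0 and 7.66 CPM) in CharmeKO. Replicate 2 was highest in each genotype, and the lowest CharmeKO library was well above the highest WT library. The means were 1.39 ± 0.586 and 11.4 ± 4.23 CPM (SD, n = 3), with a log2 fold change of 3.02 (SE 0.36).

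Zfp979 was the member with the highest level in both genotypes. Its WT libraries were nearly equal at 18.5, 19.3 and 18.6 CPM (785, 506 and 173 counts), although they differ most in depth. The CharmeKO libraries held 65.8, 91.5 and 50.7 CPM (1885, 2237 and 1542 counts), so that they spread more widely than WT and were all above it. The mean of 18.8 ± 0.421 CPM in WT and 69.4 ± 20.6 CPM in CharmeKO (SD, n = 3) gave a log2 fold change of 1.88 (SE 0.19). This is the smallest log2 fold change by size among the members and the one with the smallest SE.

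Znf41-ps, the pseudogene, had 92, 43 and 16 counts in WT (2.16, 1.64 and 1.72 CPM) and 3, 3 and 1 counts in CharmeKO (0.105, 0.123 and 0.0329 CPM). WT libraries agreed closely, and 2 of the CharmeKO libraries were at 3 counts and the other below it. The means were 1.84 ± 0.283 and 0.0868 ± 0.0475 CPM (SD, n = 3), with a log2 fold change of -4.37 (SE 0.65). The summed counts were 23.1 times higher in WT, with a 95% exact interval of 10.9 to 58.3 for counting error.

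Zfp991, a coding gene of 11 fingers, had 141, 38 and 23 counts in WT (3.32, 1.45 and 2.47 CPM) and 14, 2 and 3 counts in CharmeKO (0.489, 0.0818 and 0.0987 CPM). CharmeKO replicate 1 was the highest of its group and still below every WT library. The means were 2.41 ± 0.936 and 0.223 ± 0.230 CPM (SD, n = 3), and the log2 fold change was -3.40 (SE 0.68). It moved most, to -4.66, without that library.

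Levels of different genes are set side by side per kilobase of exon, which is not secure for Znf41-ps and Zfp991, whose transcripts are mostly shared with other genes. In WT the order was Zfp979 (4.57 ± 0.102 CPM per kb), Zfp991 (0.827 ± 0.321), Znf41-ps (0.763 ± 0.117), Zfp985 (0.485 ± 0.204) and Zfp990 (0.0103 ± 0.0178). Zfp991 and Znf41-ps, and likewise Znf41-ps and Zfp985, overlapped in their libraries. In CharmeKO the order was Zfp979 (16.9 ± 5.02 CPM per kb), Zfp985 (3.97 ± 1.47), Zfp990 (1.58 ± 0.377), Zfp991 (0.0765 ± 0.0790) and Znf41-ps (0.0360 ± 0.0197), of which only the neighbours Zfp991 and Znf41-ps overlapped. Together the 5 members held 24.5 ± 0.393 CPM in WT and 86.6 ± 25.3 CPM in CharmeKO (SD, n = 3). Zfp979 made up 74.2% to 78.9% of that sum in WT and 78.5% to 80.8% in CharmeKO.

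**Figure D2:**
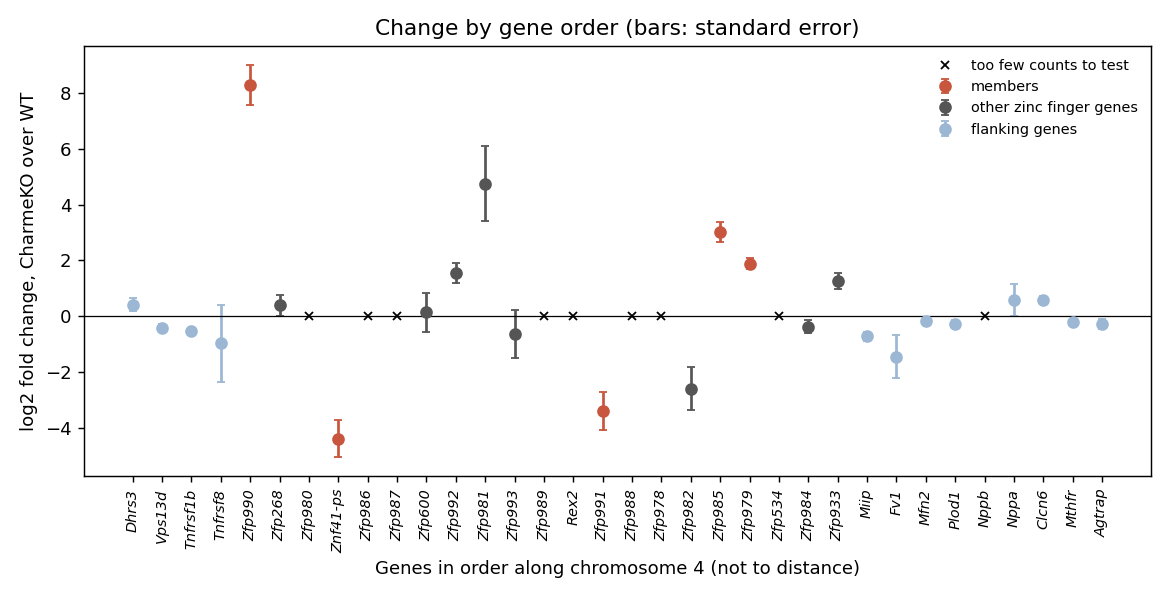
Log2 fold change of CharmeKO over WT (y axis, bars for 1 SE) of the zinc finger genes and the flanking genes, in their order along chromosome 4 (x axis, not to distance), with members in red. Crosses at 0 stand for genes with too few counts to test and are not measured changes. From left to right the members are positive (Zfp990), negative (Znf41-ps, Zfp991) and positive (Zfp985, Zfp979).

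In the order of the genes along the chromosome, Zfp990 comes first of the 21 zinc finger genes, followed with gaps by Znf41-ps and Zfp991, and then by Zfp985 and Zfp979, which are direct neighbours on opposite strands. The members are therefore not a single block. Between Zfp990 and Znf41-ps lie Zfp268 and Zfp980, and 8 zinc finger genes separate Znf41-ps from Zfp991. Zfp982, which stands directly before Zfp985 in the order, had 76, 35 and 19 counts in WT and 2, 17 and 3 in CharmeKO.

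The starts of Zfp985 and Zfp979, which were both higher in CharmeKO, are alike in sequence, as are some starts of other genes of the cluster. Of the 5 members, these 2 matched the RefSeq promoter table (GRCm38.p6). The windows, from 250 bases before the start to 50 after it, are chr4:147553027-147553326 on the plus strand for Zfp985 and chr4:147642459-147642758 on the minus strand for Zfp979. They are printed 5′ to 3′ because these neighbours moved the same way, with capitals for runs of at least 15 bases that both share.
Zfp985: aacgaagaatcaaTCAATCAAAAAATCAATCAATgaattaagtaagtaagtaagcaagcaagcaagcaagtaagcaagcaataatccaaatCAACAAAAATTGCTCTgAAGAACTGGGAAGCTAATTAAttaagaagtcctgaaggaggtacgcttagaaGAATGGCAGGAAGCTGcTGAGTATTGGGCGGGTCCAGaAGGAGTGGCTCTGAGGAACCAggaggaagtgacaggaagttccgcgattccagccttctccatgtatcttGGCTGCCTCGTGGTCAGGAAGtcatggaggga
Zfp979: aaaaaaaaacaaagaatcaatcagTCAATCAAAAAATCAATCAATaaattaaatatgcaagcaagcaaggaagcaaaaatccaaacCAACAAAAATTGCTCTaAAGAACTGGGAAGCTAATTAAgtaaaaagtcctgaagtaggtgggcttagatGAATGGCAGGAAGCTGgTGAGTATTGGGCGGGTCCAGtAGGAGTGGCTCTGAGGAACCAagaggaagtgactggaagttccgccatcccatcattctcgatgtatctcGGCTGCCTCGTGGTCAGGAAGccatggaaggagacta
The aligned windows had 257 identical bases, 85.7% of 300. Each held GGGCGG once (35.7% of 32851 promoters of this length hold it on either strand), and GGAAGT occurred 3 times in Zfp985 and 2 times in Zfp979 (23.8% of promoters). The Zfp979 window was 96.7% identical to that of Rex2, which had at most 3 counts in any library. It was 96.3% identical to the nearest start of Zfp600, whose log2 fold change was 0.14 (SE 0.71). For the nearest start of Zfp982 it was 88.0%, more than for Zfp985, and Zfp982 had a log2 fold change of -2.59 (SE 0.77). Other starts of both genes did not align along the window, with only 42 (Zfp600), 58 and 3 (Zfp982) bases aligned. Ends were left free, so a share of 300 bases is no measure of identity for these starts. Counts per gene do not separate its starts, so which start gave them was not tested. The Zfp985 window was 89.0% identical to that of Zfp987, 86.0% to that of Zfp980 and 85.3% to the nearest start of Zfp982.

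Members differ in how far their transcripts can be told from other genes, which matters because STAR's gene counts take only reads that map to a single place. Of all 50-base stretches of the longest transcript, 84.3% in Zfp985, 75.4% in Zfp979 and 73.0% in Zfp990 occurred in no annotated transcript of another gene. The rest of the genome was not searched, so the shares that map to a single place may be lower. For the pair that was lower in CharmeKO the shares were 13.0% (Zfp991) and 10.2% (Znf41-ps), and with stretches of 100 bases they were 26.2% and 22.7%. The counts of the pair thus rest on short unique stretches, and their levels per kilobase do not count the reads that map to several copies.

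**Figure D3:**
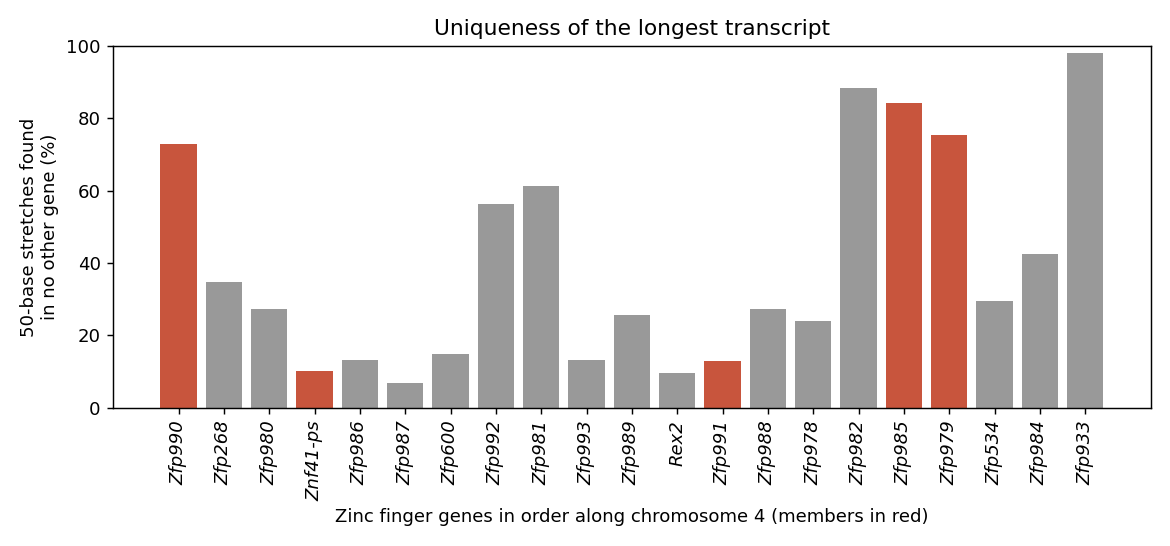
Share of 50-base stretches of the longest transcript that occur in no annotated transcript of another gene (y axis, percent). The 21 zinc finger genes of the cluster are in gene order (x axis), with members in red. Zfp985, Zfp979 and Zfp990 are above 70%, and Zfp991 and Znf41-ps are below 15%.

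Znf41-ps and Zfp991 are near copies of each other and of Zfp992. Of the 1719 coding bases of Zfp991, 6 differ in Znf41-ps and 8 in Zfp992. A window of 120 bases, coding positions 227 to 346 of Zfp991, is printed to show how little separates them, with capitals for the bases at which the copies differ.
Zfp991: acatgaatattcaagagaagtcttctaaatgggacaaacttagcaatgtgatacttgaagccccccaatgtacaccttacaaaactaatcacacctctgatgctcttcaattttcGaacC
Znf41-ps: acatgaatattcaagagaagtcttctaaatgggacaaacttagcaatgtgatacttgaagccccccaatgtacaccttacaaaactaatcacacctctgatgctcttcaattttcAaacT
Zfp992: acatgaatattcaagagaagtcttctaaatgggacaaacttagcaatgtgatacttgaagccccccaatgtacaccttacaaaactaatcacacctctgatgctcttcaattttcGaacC
In this window Znf41-ps differs from Zfp991 at 2 bases and Zfp992 at 0, so that a read lying within it cannot be placed on Zfp991 or Zfp992 alone.

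The near copy Zfp992 held 1.65, 0.951 and 2.04 CPM in WT and 4.23, 5.52 and 3.49 CPM in CharmeKO, with no overlap. The means were 1.55 ± 0.553 and 4.41 ± 1.03 CPM (SD, n = 3). Its log2 fold change was 1.55 (SE 0.36) at an edgeR adjusted p of 0.0892, and DESeq2 gave an adjusted p of 0.0049. Znf41-ps and Zfp991 together held 3.08 to 5.48 CPM in WT libraries and 0.132 to 0.594 CPM in CharmeKO libraries. With Zfp992 and Zfp993 added, a sum chosen after the values were seen, the ranges overlapped, at 4.30 to 7.43 CPM in WT (mean 6.17 ± 1.65) and 3.72 to 6.14 CPM in CharmeKO (mean 4.95 ± 1.21). The share of unique 50-base stretches was 56.3% in Zfp992, against 13.0% in Zfp991, 10.2% in Znf41-ps and 13.2% in Zfp993. The counts of these copies are therefore not on the same scale, and their sum does not measure the RNA of all copies. Whether reads were assigned to a different copy in the genotypes was not tested.

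**Figure D4:**
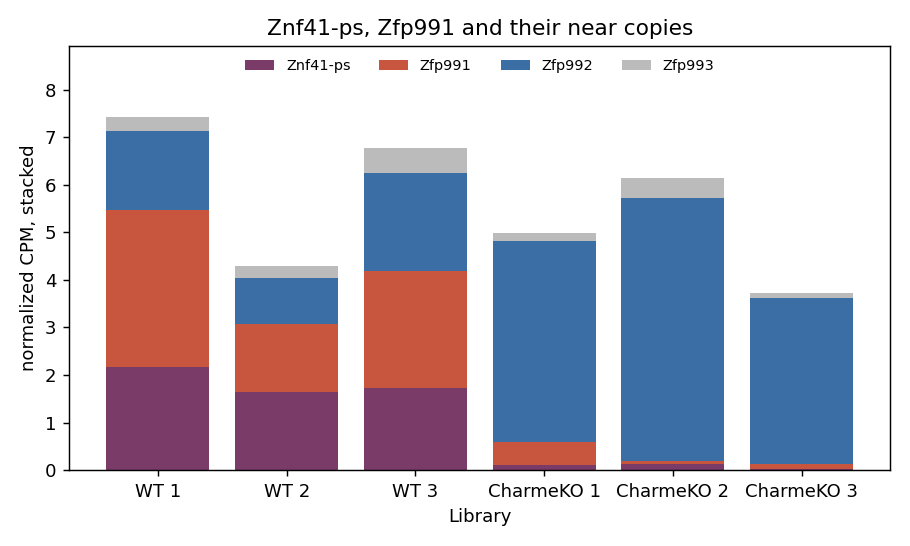
Stacked CPM (y axis) of Znf41-ps, Zfp991, Zfp992 and Zfp993 in each library (x axis). The WT bars are 4.30 to 7.43 high and the CharmeKO bars 3.72 to 6.14, and Zfp992 takes most of each CharmeKO bar. The copies differ in the share of their transcripts that is unique, so their heights are not on the same scale.

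The other 16 zinc finger genes of the cluster were mostly low, with 8 reaching the minimum of counts. None of the 8 was called by edgeR's quasi-likelihood test (0 of 8, against 0.83% of all genes). An unadjusted p under 0.05 was found in 4 (12.8% of all genes had it). DESeq2 called 3 of the 8, against 394 of all 15789 genes. The log2 fold changes of the 8 were positive in 5 and negative in 3, with a median of 0.27. Their median size was 0.944 against 0.201 over all genes tested. Their median level was 1.63 CPM against 14.4 CPM over all genes. The CharmeKO libraries lay above WT in 3 and below in 1, 4 of the 8 in all, against 18.2% of all genes (9.57% above and 8.59% below). Of these 4, Zfp981 reached the minimum of counts through CharmeKO libraries alone. Zfp982 would not have reached it in CharmeKO alone. Both counts of 4 include them and so rest in part on the filter.

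Zfp933, at the far end of the order and 98.1% unique in its 50-base stretches, had 95, 94 and 32 counts in WT and 259, 179 and 164 in CharmeKO, a log2 fold change of 1.26 (SE 0.28) at an edgeR adjusted p of 0.0833. DESeq2 gave it an adjusted p of 0.0053, and without WT replicate 2 edgeR gave 0.0406. Zfp982 gave -2.59 (SE 0.77) at an edgeR adjusted p of 0.195, and DESeq2 gave 0.0245. Without CharmeKO replicate 2, which held 17 of its counts, it gave -4.26 at an edgeR adjusted p of 0.0380. Zfp981, with 0, 0 and 1 counts in WT and 10, 9 and 25 in CharmeKO, was like Zfp990 in being near 0 in WT. The 3 most abundant were Zfp984 (log2 fold change -0.37, adjusted p = 0.565), Zfp933 and Zfp992. The 16 genes summed to 17.1 ± 2.84 CPM in WT and 22.2 ± 2.61 CPM in CharmeKO (SD, n = 3). The members, with 5 of the 21 genes, held most of the cluster's sum in both genotypes, but through Zfp979. Zfp979 alone was 42.9% to 50.3% of the sum of all 21 genes in WT and 60.8% to 67.4% in CharmeKO. The 4 members without it summed to 5.68 ± 0.663 and 17.2 ± 4.87 CPM, less than the 16 genes.

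Of 12 tested flanking genes 0 were called by edgeR, against 0.83% of all genes, and 4 had an unadjusted p under 0.05, against 12.8%. The CharmeKO libraries lay above WT in 1 and below in 5, 6 of the 12 in all, against 18.2% of all genes. There were 3 positive and 9 negative log2 fold changes and a median of -0.27. DESeq2 called 3 of the 12, against 394 of all 15789 genes. The 3 were Tnfrsf1b (DESeq2 adjusted p = 0.0068), Miip (0.0137) and Clcn6 (0.0250). Their edgeR log2 fold changes were -0.52, -0.71 and 0.59. The 3 most abundant flanking genes, called by neither, were Plod1, a collagen lysyl hydroxylase (log2 fold change -0.27), Vps13d, a lipid transfer protein (-0.41), and Dhrs3, a retinaldehyde reductase (0.42). Of 67 other genes between the outermost zinc finger genes, 5 were tested and 0 called by edgeR, with an unadjusted p under 0.05 in 2. Among these 2, Gm13243 reached the minimum of counts through CharmeKO libraries alone.

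The partners through which KRAB zinc finger proteins act were measured in all 6 libraries. Their list also holds the zinc finger genes Zfp57, Zfp809 and Zfp932, which are counted again among the zinc finger genes elsewhere. Of 34 tested genes of this list 0 were called by edgeR (0.83% of all genes were), and 4 had an unadjusted p under 0.05 (12.8% of all genes had). DESeq2 called 0 of the 34, against 394 of all 15789 genes. The log2 fold changes of the 34 were positive in 17 and negative in 17, with a median of -0.02. Trim28, the corepressor itself, held 175 ± 3.51 CPM in WT, against 147 ± 18.6 CPM in CharmeKO (SD, n = 3; edgeR adjusted p = 0.421). The most abundant were the nucleosome remodeler Chd4 (log2 fold change -0.06) and the histone methyltransferase Ehmt2 (-0.15).

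Of 351 tested zinc finger genes elsewhere in the genome 0 were called by edgeR, against 0.83% of all genes. An unadjusted p under 0.05 was found in 32, against 12.8% of all genes. DESeq2 called 3 of the 351, against 394 of all 15789 genes. Log2 fold changes were positive in 237 of the 351 (67.5%), where 51.2% of all tested genes were positive, and their median was 0.14. The 3 most abundant, Zfp36, Zfp36l1 and Zfp36l2, are RNA-binding proteins with CCCH fingers and had log2 fold changes of -0.0036, 0.05 and -0.10.

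The genes most like each member were found by the root mean square difference of their centred log2(CPM + 1) values over the 6 libraries, a description over libraries that share the split by genotype. Nearest to Zfp990 were Gm3716 (0.240) and Rpl3-ps1 (0.290), the latter named as a ribosomal protein pseudogene. Nearest to Znf41-ps were Ephb6 (0.161), an ephrin receptor, and Fam167b (0.175). Zfp991 was most like Znf41-ps (0.227), its near copy, and then Il1rl2 (0.251), a receptor of the interleukin 1 family. Zfp985 was most like Rbpj-ps3 (0.308) and its neighbour Zfp979 (0.332), and Zfp979 was most like Gm29216 (0.153) and Atp6-ps (0.219). The added 1 compresses low levels, so a near gene need not share the fold. Ephb6 had means of 12.8 CPM in WT and 4.61 in CharmeKO, against 1.84 and 0.0868 for Znf41-ps. Il1rl2 had 25.9 and 11.7 CPM, against 2.41 and 0.223 for Zfp991. Rpl3-ps1 had 2.99 and 30.3 CPM, against 0.0359 and 5.54 for Zfp990.

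As a check of the tissue, the summed fibroblast markers were at 16145 to 22274 CPM in WT and 12730 to 18709 CPM in CharmeKO, with all 8 of 8 tested. The WT sum was led by Col3a1, Col1a1 and Col1a2, with log2 fold changes of -0.61, -0.77 and -0.54. Pdgfra (-0.05) and Ddr2 (-0.18) were also negative, while Dcn (0.29), Lum (0.32) and Tcf21 (0.15) were positive. The sum is therefore no measure of fibroblast content. Endothelial markers summed to 4283 to 4930 and 4561 to 5482 CPM, mural markers to 1557 to 1861 and 1590 to 1858 CPM, and leukocyte markers to 25.3 to 43.3 and 30.5 to 41.6 CPM. Of the 5 endothelial markers, Kdr, Tek and Emcn lay above WT in every CharmeKO library, as 9.57% of all genes did. Pecam1 and Cdh5 overlapped. Of the 5 mural markers, Cspg4 and Pdgfrb lay below WT in every CharmeKO library, as 8.59% of all genes did. The summed cardiomyocyte markers were higher in every CharmeKO library, at 248 to 369 CPM against 166 to 217 CPM. Of these 5 genes edgeR called 2, against 0.83% of all genes. They were Myh6 (adjusted p = 0.0292) and Tnni3 (adjusted p = 0.0200), which encode sarcomere proteins. Tnnt2 and Ryr2 also lay above WT in every CharmeKO library, while Actc1 overlapped (log2 fold change 0.05, edgeR adjusted p = 0.957). RNA of other cell types was thus present beside that of fibroblasts. The part of each cell type, cardiomyocytes included, in the members' values was not tested.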

How the data were processed

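mRNA of native CFs from 3 WT and 3 CharmeKO samples was measured. The authors aligned directional, poly(A)-selected reads with STAR, counted them on genes of an Ensembl release 87 annotation with Charme added, and deposited raw counts, without normalization or a gene filter. The labels name GRCm39 and also GRCh38, a human build, and that Ensembl release annotates an earlier mouse build. For this reason no coordinates are given for the counted genes, and gene order follows GENCODE M21 on GRCm38. The 2 promoter windows have RefSeq coordinates on GRCm38.p6. Of 49548 genes, 49288 were in that annotation.

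Genes reaching 10 counts in 2 or more of the 6 libraries were tested with edgeR 4.0.16 (R 4.3.3), TMM scaling, the quasi-likelihood test and Benjamini-Hochberg adjustment at 0.05, with genotype alone in the model. DESeq2 1.42.0 and other settings served as alternatives. Exact intervals at 95% and floors of 3 counts cover counting error only. Levels per kb used the merged exon length. Transcripts were aligned with blastn 2.17.0, and figures drawn with matplotlib 3.10.9. Scripts were tested on simulated data. Libraries were checked for duplicates, and none was found.

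The members and lists were chosen with earlier results of these data known. Named genes were the members, every called gene and the 3 most abundant genes of each list described, and the 2 genes nearest to each member in pattern. Other genes of the cluster and its flanks, and single cell type markers, were named after their values were seen.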

Additional observations from a re-analysis of the deposited data

How the results depend on the processing

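The direction of every member stayed the same under every alternative run that tested it. Leaving out each library in turn gave log2 fold changes of 7.34 to 10.40 for Zfp990, -4.67 to -3.97 for Znf41-ps, -4.66 to -3.03 for Zfp991, 2.70 to 3.48 for Zfp985 and 1.64 to 2.07 for Zfp979. Adjusting for Xist and Y-linked RNA, which divide the samples, was added after seeing the data and gave -4.62 for Znf41-ps and -3.75 for Zfp991. A filter of 10 counts in 5 libraries left Zfp985 and Zfp979 alone among the members.

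The number of genes called, 131 of 15789, rose to 394 of 15789 with DESeq2 and 699 of 24579 without a gene filter. It ranged from 61 to 349 with 1 library left out (71 without WT replicate 1, 349 without WT replicate 2, 67 without WT replicate 3, 61 without CharmeKO replicate 1 and 67 without CharmeKO replicate 2). The other zinc finger genes of the cluster, 0 called, gave 3 of 8 with DESeq2, 3 of 16 without a filter and 0 to 1 with a library left out. Flanking genes gave 3 of 12, 3 of 13 and 0 to 2. The KRAB machinery gave 2 of 34 without a filter and 0 to 2 with a library left out, where Hells and Uhrf1 were called without WT replicate 2. Zinc finger genes elsewhere gave 3 of 351 with DESeq2, 5 of 381 without a filter and 0 to 1 with a library left out. The cause of these differences was not tested.

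Samples with the same replicate number correlated by 0.216, 0.0535 and 0.161 in their deviations from the group means. Each sample correlated best with its own number, a hint from the data and not the design, so the number was not taken as a pairing. With the replicate block, 302 genes were called, with 1 of the flanking genes and 1 of the zinc finger genes elsewhere. Counts of 3 or fewer, as in Zfp990 in WT and Znf41-ps in CharmeKO, limit the precision of the members' folds.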
